A study of Mus musculus with 9 samples.

Results

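The imprinted growth control genes Igf2, Igf2r, Cdkn1c, Peg3, Mest, Grb10, Dlk1, Plagl1, Ndn and Snrpn were followed through 3 mouse cell types on 9 expression arrays. All probe sets that the platform annotation assigned to these symbols were taken, whatever they showed, which gave 35 of 45037 probe sets and 10 of 18193 genes. Of the 35, 28 carried a single gene symbol and 7 carried several, namely 6 assigned to both Snurf and Snrpn and 1 assigned to both Airn and Igf2r. A probe set with several symbols cannot be credited to any of them alone.

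Very small embryonic-like stem cells (VSEL) and cells called haematopoietic stem cells (HSC) came from bone marrow of C57BL/6 mice aged 4 weeks, and embryonic stem cells were of the line ESC-D3 (ESC), which is of strain 129S2/SvPas and was kept with leukaemia inhibitory factor at 10 ng/ml. Both marrow gates were Sca-1+ and Lin-, with VSEL taken as CD45- and HSC as CD45+. Each library was PCR-amplified cDNA from 20 sorted cells, so it is an average over a small pool, and ESC-D3 is a single established line. Cell type, strain, tissue and culture differ together between the marrow cells and ESC and cannot be told apart. No label states that replicate libraries stem from different mice or dishes. The p-values below therefore speak of the spread between these libraries alone, and that spread may be technical.

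An imprinted gene is expressed mainly from either the maternal or the paternal chromosome, because of marks set in the germ line. In the mouse, Igf2, Peg3, Mest, Dlk1, Plagl1, Ndn and Snrpn are expressed from the paternal copy, whereas Igf2r, Cdkn1c and Grb10 are expressed from the maternal copy in most tissues. Several of the paternally expressed members promote fetal growth and the 3 maternally expressed members restrain it. The arrays measured the summed RNA of both copies, so nothing here bears on which copy was active.

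VSEL arrays 2 and 3 were almost the same (r = 0.989, with 1 probe set over 4-fold apart, against 1565 to 4232 probe sets in the other pairs), so they were averaged and counted as 1 library, written VSEL 2+3. That left 8 libraries, with n = 2 for VSEL, 3 for HSC and 3 for ESC in every comparison. Values are log2 RMA values, on which a difference of 1 is a 2-fold ratio, and group values are means ± SD of libraries. Ptprc, which encodes CD45, followed the gates, at 3.59 and 3.25 in VSEL, between 13.40 and 13.68 in HSC and between 2.94 and 3.17 in ESC. The VSEL libraries nevertheless differed in other leukocyte genes, and the median of 10 leukocyte markers was 4.41 in VSEL 1 and 12.80 in VSEL 2+3, against 13.13 to 13.38 in HSC and 4.58 to 4.82 in ESC. Of 8 measured HSC markers, 4 averaged at or below the detection line described next in the HSC libraries themselves.

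The series gave no detection calls, so a value was called dim where it lay at or below the 95th percentile of 44 probe sets of olfactory receptor genes on the same array, a class that these cells are not known to use. This line stood at 6.16 to 6.37 on the VSEL arrays, 5.54 to 5.82 on the HSC arrays and 5.59 to 5.65 on the ESC arrays. Of the 35 member probe sets, 17 were dim in all 8 libraries, 12 were above the line in some and 6 in all of them. Among all probe sets, 20971 of 45037 (46.6%) were dim in all 8 libraries. A ratio against a dim group is a ratio of array values and can understate the ratio of RNA levels.

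Promoter sequences of 9 of the 10 genes were available from RefSeq (GRCm38.p6), as 18 windows of 300 bases around annotated transcript starts, and Cdkn1c had no entry. They are shown for Ndn and Snrpn because probe sets of Ndn and of the Snurf and Snrpn pair had the widest HSC against ESC differences below, although that of Snrpn alone did not, and both genes lie on chromosome 7. The 8 letters CGCATGCG, which form the centre of the binding motif known for the transcription factor NRF1 and read the same on both strands, occurred in the Ndn window and in each of the 4 Snrpn windows, and in none of the other 13 member windows. The letters were found in 615 of all 32851 windows (1.87%), or in at least 1 window of 559 of 27025 genes (2.07%). Snrpn windows 1 to 3 hold nearly the same letters before the motif, so they are not separate occurrences. No enrichment is read from these shares. The stretches around the motif are given 5′ to 3′ on the strand of the gene, with the motif in capitals.
Ndn: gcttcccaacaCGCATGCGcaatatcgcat
Snrpn window 1: gcaaacatccaCGCATGCGtgattggaagg
Snrpn window 2: gcaaacatccaCGCATGCGtgatgggaggg
Snrpn window 3: gcaaacatgcaCGCATGCGtcgttgaaggt
Snrpn window 4: attgcctgggaCGCATGCGtaggga
The Ndn stretch is chr7:62348243-62348272 on the plus strand, with the motif at bases -23 to -16 from the start. The Snrpn stretches are on the minus strand at chr7:60450222-60450251, chr7:60140285-60140314, chr7:60048031-60048060 and chr7:60005150-60005174. In the first 3 Snrpn windows the motif lay upstream of the start (bases -63 to -56, -78 to -71 and -71 to -64), and in the fourth it lay 37 to 44 bases after the start. A match of letters is a description and does not show that a factor binds there, and binding was not measured.

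Imprinting is marked by methylation of cytosines in CG pairs, so these pairs were counted in each window. The counts do not show whether a window itself carries an imprint. All 32851 windows had a median of 7 CG pairs (quartiles 3 and 20). The member windows ranged between 2, in the outermost windows of Igf2 and Snrpn, and 45, in a window of Grb10. The Igf2r window held 34 and the Plagl1 window 26, whereas the Ndn window held 11. The 250 bases before the start are printed for Ndn and for a window of Mest, the 1-gene members with the largest differences between HSC and ESC, with CG pairs in capitals.
Ndn upstream: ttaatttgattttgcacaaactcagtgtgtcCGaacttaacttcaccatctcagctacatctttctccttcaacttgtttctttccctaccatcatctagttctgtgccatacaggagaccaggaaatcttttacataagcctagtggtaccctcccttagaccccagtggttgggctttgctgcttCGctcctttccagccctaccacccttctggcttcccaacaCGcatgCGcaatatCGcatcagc
Mest window 2 upstream: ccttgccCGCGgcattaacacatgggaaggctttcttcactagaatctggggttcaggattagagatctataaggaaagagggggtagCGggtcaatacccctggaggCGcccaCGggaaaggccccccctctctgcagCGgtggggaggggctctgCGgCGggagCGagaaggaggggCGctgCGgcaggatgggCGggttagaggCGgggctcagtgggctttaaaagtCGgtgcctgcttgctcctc
The Ndn sequence (chr7:62348027-62348276, plus strand) holds 5 CG pairs, and the outer pairs of the CGCATGCG motif are among them. The Mest sequence (chr6:30737800-30738049, plus strand) holds 14. Methylation was not measured in these libraries.

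Each of the 3 pairs of cell types was compared with limma in a single fit over all 45037 probe sets, with p-values adjusted by Benjamini-Hochberg within a comparison, and a probe set was called at an adjusted p of 0.05. Fewer cells expressing a gene and less RNA per cell cannot be told apart in these pooled libraries. The widest separation of the imprinted members was between HSC and ESC. There 13 of the 35 member probe sets were lower in HSC and 0 were higher, while 6.21% of all probe sets were called lower in HSC and 4.42% higher. At an unadjusted limma p under 0.05, 15 of the 35 were lower in HSC and still 0 higher, beside 12.1% and 8.81% of all probe sets. The 13 belong to Igf2, Mest, Ndn, Snrpn and the Snurf and Snrpn pair, so they are not 13 independent genes. When each gene was read from its 1-gene probe set with the highest mean, 4 of the 10 members were called lower in HSC than in ESC (Igf2, Mest, Ndn and Snrpn) and 0 higher, beside 8.89% and 6.38% of all genes. With the unadjusted p, 5 were lower and 0 higher, beside 16.5% and 11.8% of all genes.

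VSEL and HSC differed in fewer member probe sets. Of the 35, 5 were called higher in VSEL and 0 lower, while 8.0% of all probe sets were called higher and 6.19% lower, and no more is read from this count. At an unadjusted limma p under 0.05, 17 were higher and 0 lower, beside 23.4% and 10.1% of all probe sets. All 5 belong to Ndn or to the Snurf and Snrpn pair. Both VSEL libraries lay above all 3 HSC libraries for 21 of the 35 and below them for 0, but this held for 40.0% and 12.8% of all probe sets. Low values stood higher on the VSEL arrays in general, with a lower quartile of all probe sets of 3.89 to 3.95, against 3.67 to 3.73 on the HSC arrays. High values stood lower on them, with an upper quartile of 6.63 to 6.68. This was 7.11 to 7.18 on the HSC arrays and 7.12 to 7.16 on the ESC arrays. The part of this narrower range in the VSEL differences was not tested. From the highest-mean probe set, 0 of the 10 members were called in either direction by limma, beside 9.29% of all genes higher and 9.04% lower, and with the unadjusted p 6 were higher in VSEL and 0 lower, beside 23.7% and 14.6%.

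In VSEL against ESC, 8 of the 35 member probe sets were called lower and 2 higher, beside 6.93% and 7.13% of all probe sets. All 8 lower calls belong to Ndn or to the Snurf and Snrpn pair, and both higher calls are of probe sets that were dim in all 8 libraries. Both VSEL libraries lay below all ESC libraries for 12 of the 35 and above them for 7, beside 16.4% and 38.1% of all probe sets. From the highest-mean probe set, 1 of the 10 members (Plagl1) was called higher and 0 lower by limma, beside 7.59% and 10.3% of all genes, and with the unadjusted p 2 were higher and 3 lower, beside 19.7% and 17.5%. In HSC against ESC, the groups did not overlap for 16 lower and 2 higher member probe sets, beside 16.7% and 13.3% of all probe sets. Over the 35, VSEL minus HSC had a median of 0.53, VSEL minus ESC of -0.07 and HSC minus ESC of -0.51, and over all probe sets these were 0.21, 0.17 and -0.02. The comparisons share groups of libraries, so their counts are not independent of each other.

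**Figure D1:**
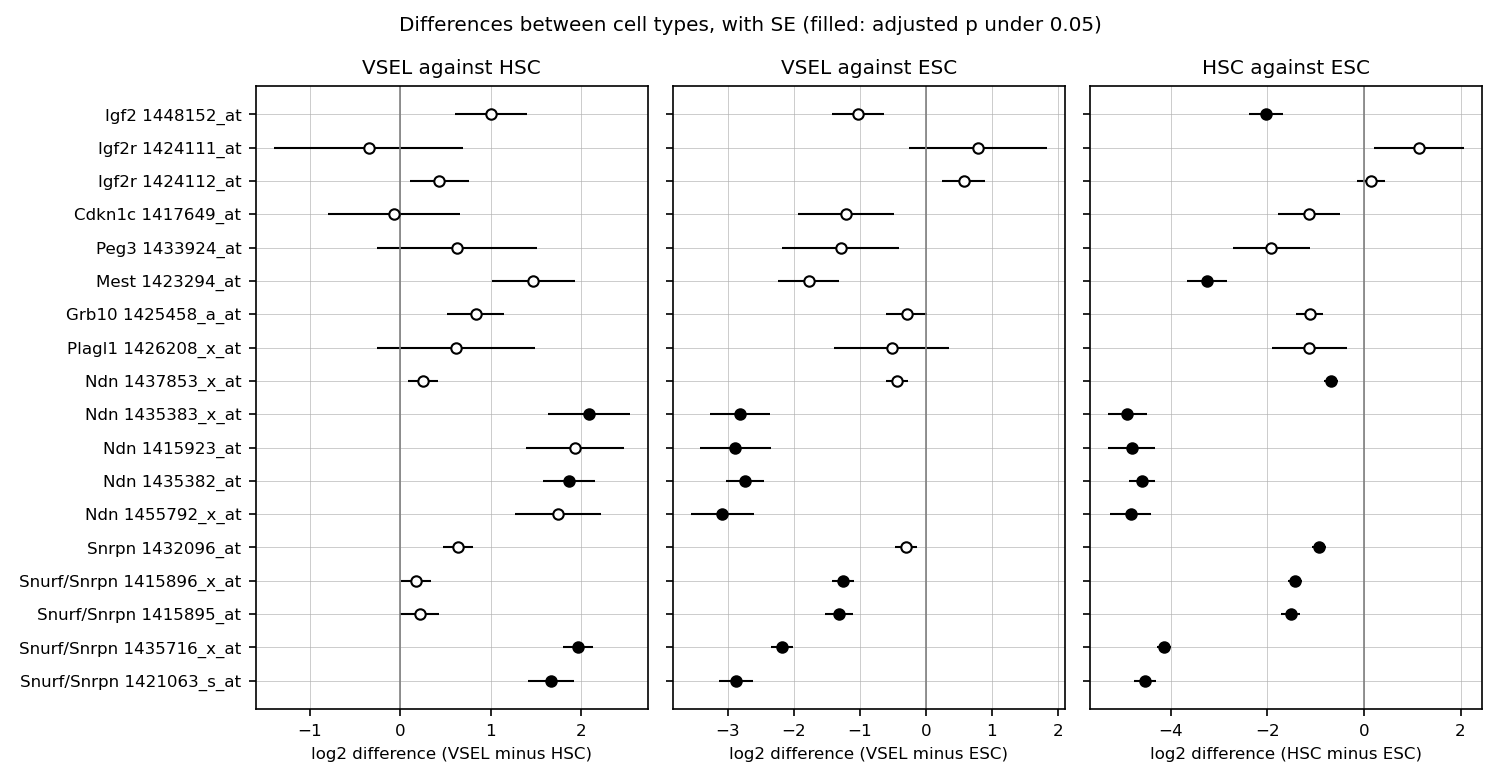
Log2 differences (horizontal axes) of the 18 member probe sets that were above the olfactory receptor line in at least 1 library, for VSEL minus HSC, VSEL minus ESC and HSC minus ESC. Points are limma estimates, bars are SEs and filled points have an adjusted p under 0.05. In HSC against ESC the 4 responsive Ndn probe sets lie between -4.90 and -4.60, and filled points lie left of 0.

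Igf2, the ligand among the members, encodes insulin-like growth factor 2, a fetal growth factor that signals through the receptor encoded by Igf1r. Probe set 1448152_at read 7.88 and 7.91 in VSEL, 6.95, 6.20 and 7.51 in HSC and 8.66, 8.76 and 9.34 in ESC. It was above the dim line in every library, and the 3 groups did not overlap, with VSEL between HSC and ESC. Igf2 was 4.09-fold lower in HSC than in ESC (log2 difference -2.03, SE 0.36, limma adjusted p = 0.0151). That call was lost without HSC 1 and without ESC 3, with a highest adjusted p of 0.0507 over 19 alternatives. VSEL was 2.01-fold higher than HSC (SE of the log2 difference 0.40, adjusted p = 0.136) and 2.04-fold lower than ESC (SE 0.40, adjusted p = 0.133) on these values, and neither difference was called. Both depend on the scaling, since quantile normalization gave a VSEL minus HSC difference of 1.65 that was called (adjusted p = 0.0351), and VSEL minus ESC ranged between -1.16 and -0.29 over the alternatives without a call. The other Igf2 probe set, 1415931_at, was dim in all libraries and correlated with the first at only r = 0.13 over the 8 libraries.

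Igf2r encodes the receptor that carries Igf2 and mannose 6-phosphate proteins to the lysosome, and it is a negative regulator of Igf2 supply. Probe set 1424111_at read 5.11 in VSEL 1 and 8.96 in VSEL 2+3, 7.14, 7.18 and 7.84 in HSC and 6.09, 5.80 and 6.85 in ESC. The VSEL libraries stood on either side of all other libraries, and the arrays averaged in VSEL 2+3 were alike at 8.92 and 8.99. HSC lay above ESC without overlap, yet the difference of 1.14 (SE 0.94) was not called (adjusted p = 0.586), and its SE includes the spread of the VSEL libraries. Neither VSEL comparison was called (-0.35 against HSC with an adjusted p of 0.832, and 0.79 against ESC with 0.642). Without VSEL 1, which leaves 1 VSEL library, the difference from ESC was 2.71. Over 19 alternatives the difference from HSC ranged between -0.48 and 1.57, with the sign turned in 3 and no call. Igf2r in VSEL therefore rests on which VSEL library is read. Probe set 1424112_at split VSEL in the same direction, at 6.08 in VSEL 1 and 6.92 in VSEL 2+3, against 5.65, 6.08 and 6.47 in HSC and 5.93, 5.77 and 6.08 in ESC.

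The leukocyte markers also differed between the VSEL libraries, though not as a unit. Their summed level, as log2 of the summed linear values of 10 genes, was 13.53 in VSEL 1 and 15.98 in VSEL 2+3, against 16.44 to 16.64 in HSC and 9.03 to 9.30 in ESC. Of the 10, 7 read higher in VSEL 2+3 than in VSEL 1, as Igf2r did, and 3 lower (Ptprc, Cd48 and Laptm5). Ptprc and Cd48, the defining leukocyte surface genes of the list, stayed dim in both VSEL libraries, while Lcp1, Cd52, Cd53 and Tyrobp were dim in VSEL 1 and read 12.62 to 13.62 in VSEL 2+3. Coro1a (11.46 in VSEL 1 and 13.86 in VSEL 2+3), Fcer1g (11.06 and 12.98) and Laptm5 (12.71 and 11.95) were well above the line in both. The part of leukocyte RNA in the Igf2r values was not tested. Of the 35 member probe sets, 2 (5.71%) differed by more than 1 between the VSEL libraries, against 7048 of 45037 (15.6%) of all probe sets, while the median absolute difference was 0.295 for the members and 0.261 for all. The other probe set of the 2 was 1426208_x_at of Plagl1, which was dim in both.

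**Figure D2:**
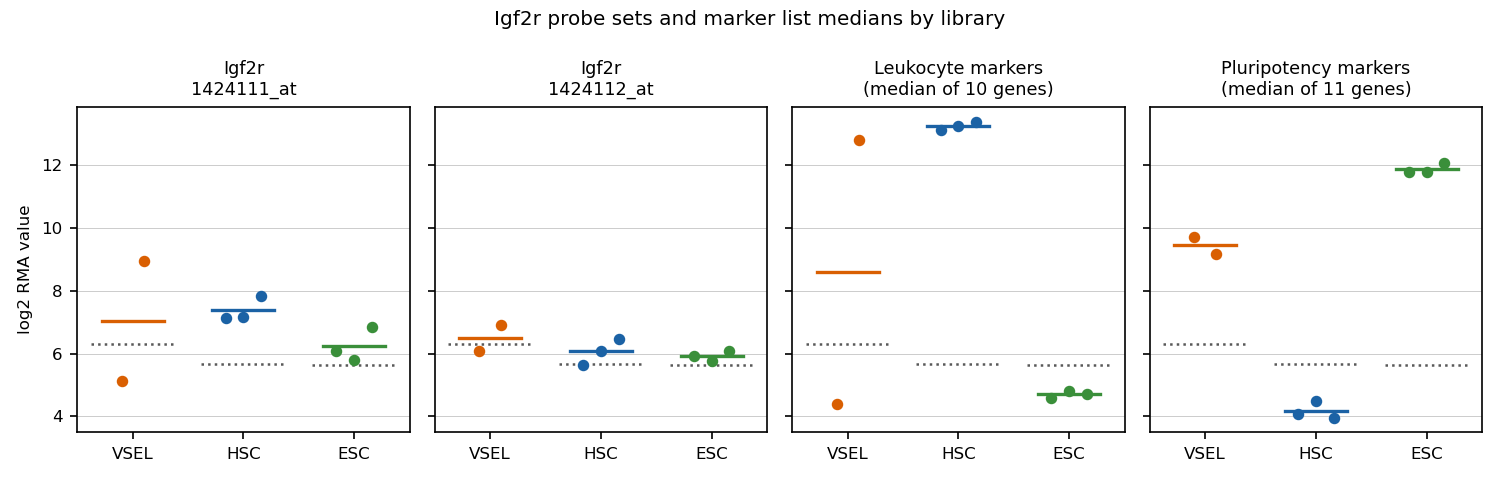
Log2 RMA values (vertical axis) of both 1-gene probe sets of Igf2r, of the median of 10 leukocyte markers and of the median of 11 pluripotency markers, by library. Points are libraries, bars are group means and dotted lines are the mean olfactory receptor line of the group. For 1424111_at of Igf2r, VSEL 1 lies at 5.11 and VSEL 2+3 at 8.96, and the leukocyte median splits VSEL at 4.41 and 12.80.

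Grb10 encodes an adaptor that binds activated insulin and IGF receptors and restrains their signal. Probe set 1425458_a_at read 5.45 and 4.85 in VSEL, 4.09, 4.44 and 4.43 in HSC and 4.99, 5.92 and 5.43 in ESC, and only ESC 2 was above the dim line. HSC lay below both other groups without overlap, but the difference from ESC of -1.12 (SE 0.28) was not called at an adjusted p of 0.0575 (called in 4 of 18 alternatives), and that from VSEL was 0.83 (VSEL minus HSC, adjusted p = 0.124). The other 2 Grb10 probe sets were dim everywhere.

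Mest encodes a protein of the alpha/beta hydrolase fold family whose loss restricts growth in mice. Its single probe set, 1423294_at, read 7.31 and 6.67 in VSEL, 5.16, 5.86 and 5.55 in HSC and 8.73, 8.04 and 9.53 in ESC. The groups did not overlap, and in HSC only library 2 was above the dim line. Mest was 9.48-fold lower in HSC than in ESC (log2 difference -3.25, SE 0.41, limma adjusted p = 0.00419), a call that held in all 19 alternatives. VSEL averaged 6.99 ± 0.46, between HSC at 5.52 ± 0.35 and ESC at 8.77 ± 0.74, and the VSEL differences of 1.47 against HSC (adjusted p = 0.0822) and -1.78 against ESC (adjusted p = 0.0527) were not called. They were called in 2 and 6 of 19 alternatives.

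Cdkn1c encodes a cyclin-dependent kinase inhibitor that stops cells in G1 and is known to keep HSC in quiescence in mice. Its probe set 1417649_at read 6.68 and 5.87 in VSEL, 6.22, 7.49 and 5.34 in HSC and 7.59, 6.64 and 8.24 in ESC. All 3 groups overlapped, and the HSC libraries alone spanned more than 2 log2 units. The differences of -0.07 for VSEL against HSC, -1.21 for VSEL against ESC and -1.14 for HSC against ESC had SEs of 0.73, 0.73 and 0.65, and none was called.

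**Figure D3:**
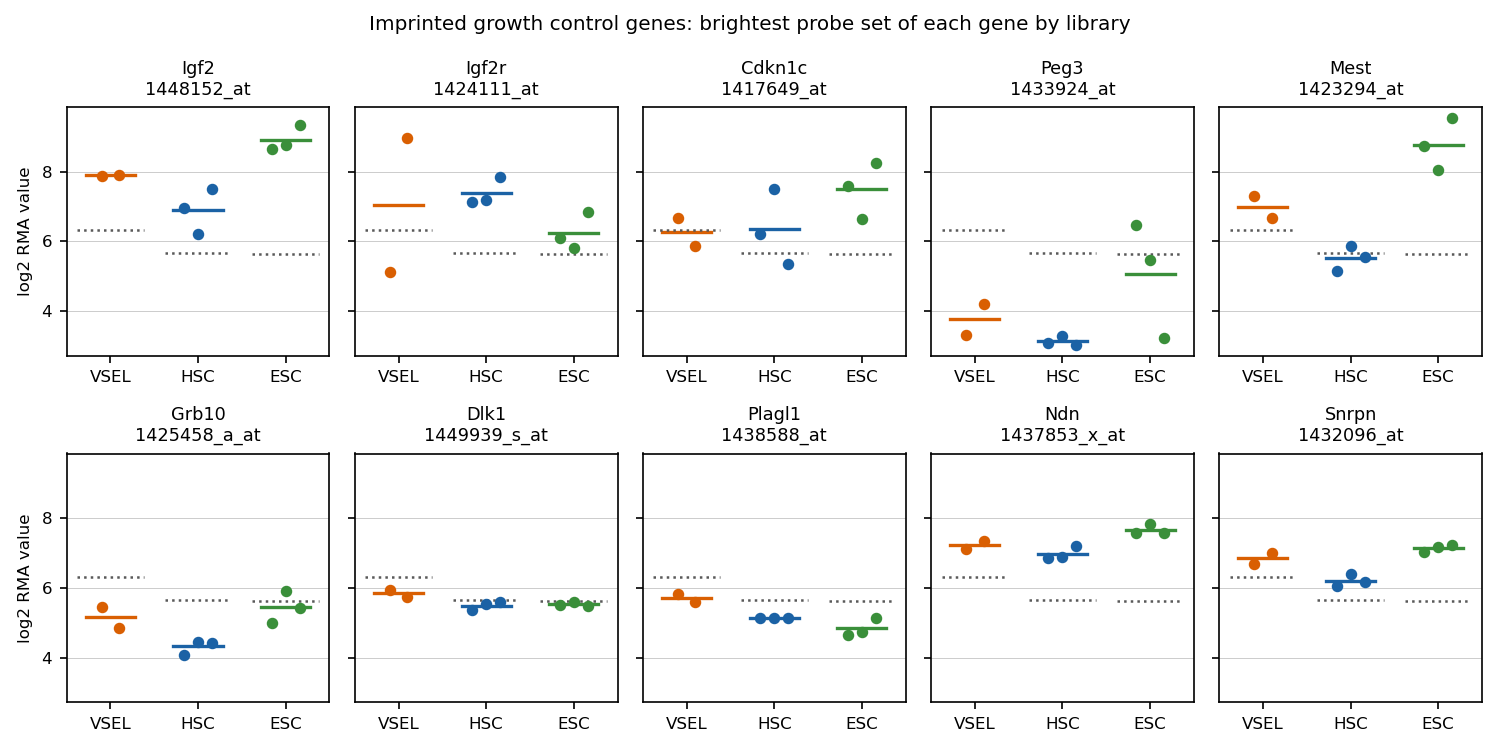
Log2 RMA values (vertical axis) of the 1-gene probe set with the highest mean of each of the 10 members in VSEL, HSC and ESC libraries. Points are libraries, bars are group means and dotted lines are the mean olfactory receptor line of the group. Igf2 and Mest are ordered HSC below VSEL below ESC without overlap, whereas Dlk1 lies under the line in all groups.

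Peg3, Plagl1 and Dlk1 were at or near the background. Peg3 encodes a zinc finger protein that affects growth and maternal behaviour in mice, and 4 of its 5 probe sets were dim in all libraries. The fifth, 1433924_at, read 3.33 and 4.21 in VSEL, 3.09 to 3.29 in HSC and 6.47, 5.47 and 3.24 in ESC, so only ESC 1 was above the line and the ESC libraries disagreed by more than 3 log2 units. Plagl1 encodes a zinc finger transcription factor that in mice regulates a network of imprinted genes. Its probe set 1438588_at stood above the ESC libraries in VSEL (5.82 and 5.58 against 4.66, 4.73 and 5.12) and was called (log2 difference 0.86, SE 0.17, limma adjusted p = 0.025), but every one of these values was dim. That call was lost in 6 of 19 alternatives. Of the others, 1450533_a_at was dim throughout and 1426208_x_at reached the line only in ESC 2, at 6.34. Dlk1 encodes a transmembrane protein related to Notch ligands that is known to hold back fat cell differentiation, and both its probe sets were dim in all libraries, between 5.44 and 5.95 in VSEL, between 4.98 and 5.58 in HSC and between 4.92 and 5.58 in ESC. The probe set assigned to both Airn and Igf2r, 1440979_at, was also dim throughout, and its call of 0.81 higher in VSEL than in ESC (adjusted p = 0.0394) was lost in 9 of 18 alternatives.

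Ndn encodes necdin, a protein of the MAGE family that restrains proliferation in neurons and is known to act in quiescence of HSC in mice. Of its 8 probe sets, 4 moved nearly as a unit, with pairwise r of 0.992 to 0.998 over the 8 libraries. Probe set 1435382_at read 5.68 and 5.42 in VSEL, 4.25, 3.45 and 3.36 in HSC and 8.28, 8.47 and 8.10 in ESC. VSEL and HSC were both below their dim lines, ESC was more than 2 log2 units above its line, and the groups did not overlap. Ndn was 24.2-fold lower in HSC than in ESC by this probe set (-4.60, SE 0.26, limma adjusted p = 0.000127) and 6.65-fold lower in VSEL than in ESC (-2.73, SE 0.29, adjusted p = 0.00398).

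The remaining 3 of these Ndn probe sets gave like differences. 1415923_at, 1435383_x_at and 1455792_x_at were 28.1-, 29.8- and 28.4-fold lower in HSC than in ESC, with adjusted p of 0.00148, 0.00063 and 0.00084. They were 7.38-, 7.03- and 8.47-fold lower in VSEL than in ESC, with adjusted p of 0.0223, 0.0145 and 0.0129. The HSC calls of all 4 held in 18 of 18 alternatives, whereas for VSEL that of 1415923_at was lost in 4 of 18 (without VSEL 1 and without each ESC library) and that of 1435383_x_at without ESC 2. VSEL minus HSC ranged from 1.75 to 2.08 over the 4, with both groups dim. It was called for 1435382_at (1.86, adjusted p = 0.0133) and 1435383_x_at (2.08, adjusted p = 0.0333) and not for 1415923_at (adjusted p = 0.062) or 1455792_x_at (adjusted p = 0.0584), each of which was called in 4 of 18 alternatives. Without VSEL 1 both VSEL against HSC calls were lost, and over 18 alternatives they were lost in 2 for 1435382_at and in 9 for 1435383_x_at.

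HSC 1 read highest of the HSC libraries in all 4, at 4.25 to 5.01 against 2.84 to 3.61 in HSC 2 and 3. The probe set of Ndn with the highest mean, 1437853_x_at, behaved differently, at 7.12 and 7.34 in VSEL, 6.86, 6.88 and 7.21 in HSC and 7.57, 7.84 and 7.57 in ESC. It was above the line in every library and lower in HSC than in ESC by a log2 difference of only -0.68 (SE 0.15, adjusted p = 0.0359), a call lost in 7 of 19 alternatives. Probe sets of Ndn therefore disagreed on whether VSEL and HSC had a level above background. The other 3 were dim everywhere, and of these 1438978_x_at was called higher in VSEL than in HSC (0.68, adjusted p = 0.0224) and lower in HSC than in ESC (-0.51, adjusted p = 0.0387). These calls were lost in 9 and 11 of 17 alternatives, and the second difference came as near to 0 as -0.0055.

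Snrpn encodes a core protein of spliceosomal small ribonucleoproteins and shares a transcript with Snurf, a short reading frame upstream of it. The probe set of Snrpn alone, 1432096_at, read 6.68 and 7.01 in VSEL, 6.05, 6.41 and 6.16 in HSC and 7.02, 7.17 and 7.24 in ESC. It was above the line in every library, and HSC lay below both other groups. It was 1.92-fold lower in HSC than in ESC (-0.94, SE 0.15, limma adjusted p = 0.00979), in all 19 alternatives, and the VSEL difference from HSC of 0.64 was not called (adjusted p = 0.0507) but was called in 7 of 19 alternatives, with a largest value of 1.06 under quantile normalization (adjusted p = 0.014).

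The probe sets assigned to both Snurf and Snrpn separated the cell types more widely. 1435716_x_at read 8.62 and 8.96 in VSEL, 6.72, 6.91 and 6.87 in HSC and 11.01, 11.14 and 10.77 in ESC, above the line in all libraries. The groups were far apart relative to their spread, with VSEL midway. The value was 3.89-fold higher in VSEL than in HSC (1.96, SE 0.17, limma adjusted p = 0.00134), 4.53-fold lower in VSEL than in ESC (-2.18, adjusted p = 0.00148) and 17.6-fold lower in HSC than in ESC (-4.14, adjusted p = 2.03e-05), and all 3 calls held in 18 of 18 alternatives. Of the member probe sets this is the one called in all 3 comparisons with values above the line in every library.

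Probe set 1421063_s_at of the same pair read 6.35 and 6.69 in VSEL, 4.57, 5.35 and 4.64 in HSC and 9.44, 9.36 and 9.38 in ESC. VSEL 2+3 was above its line, VSEL 1 and HSC were dim, and the groups did not overlap. It was 3.18-fold higher in VSEL than in HSC (adjusted p = 0.0126, lost in the fit on the compared groups alone at 0.064) and 7.32-fold lower in VSEL than in ESC (adjusted p = 0.00227). It was also 23.3-fold lower in HSC than in ESC (adjusted p = 8.03e-05).

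A further pair of probe sets assigned to both Snurf and Snrpn, 1415895_at and 1415896_x_at, were bright everywhere and did not separate VSEL from HSC. They lay between 10.51 and 10.84 in VSEL, between 10.14 and 10.63 in HSC and between 11.75 and 12.14 in ESC. They were 2.48- and 2.38-fold lower in VSEL than in ESC (adjusted p = 0.0147 and 0.00828) and 2.87- and 2.69-fold lower in HSC than in ESC (adjusted p = 0.00376 and 0.00181). VSEL minus HSC was 0.21 and 0.17, with adjusted p of 0.514 and 0.496. Under cyclic loess the VSEL against ESC differences shrank to -0.63 and -0.57 and neither was called, and that of 1415895_at was also lost without VSEL 1. The last 2 probe sets of the pair, 1441905_x_at and 1460075_x_at, were dim everywhere.

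**Figure D4:**
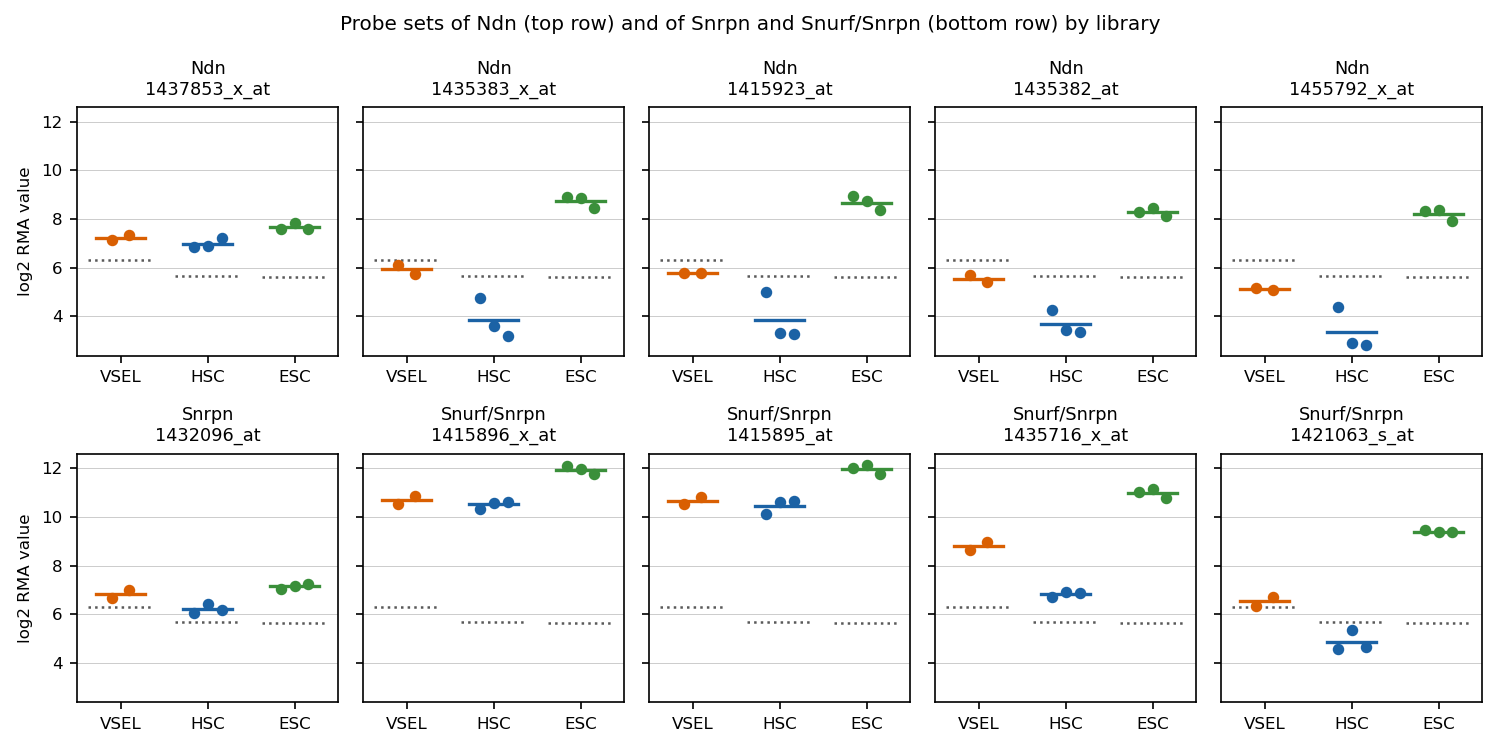
Log2 RMA values (vertical axis) of 5 probe sets of Ndn (top row) and of 5 probe sets of Snrpn or of Snurf and Snrpn (bottom row), by library in VSEL, HSC and ESC. Points are libraries, bars are group means and dotted lines are the mean olfactory receptor line of the group. 1435716_x_at averages 8.79 in VSEL, 6.83 in HSC and 10.97 in ESC, all above the line, the Ndn probe sets with wide separation lie under the line in VSEL and HSC, and 1415895_at reads 10.67 in VSEL and 10.46 in HSC.

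The VSEL libraries carried pluripotency markers at a level between HSC and ESC too. Of 11 measured markers, 10 were called higher in VSEL than in HSC and 10 lower in VSEL than in ESC, beside 9.29% and 10.3% of all genes. Klf2 was instead called lower in VSEL than in HSC (log2 difference -3.48, limma adjusted p = 0.0187). None of the 11 averaged dim in VSEL. Their median offset from the ESC mean was -2.75 in VSEL 1 and -2.64 in VSEL 2+3. Their summed level lay between 13.74 and 13.81 in VSEL, between 13.61 and 13.89 in HSC and between 16.15 and 16.20 in ESC, where the HSC sum includes Klf2, at 13.54 to 13.83 in HSC.

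Offsets of VSEL from ESC varied among the imprinted members in size and in sign. The 4 responsive Ndn probe sets, dim in VSEL, were offset by -3.13 to -2.60 over the VSEL libraries. 1437853_x_at of Ndn, above the line throughout, was offset by -0.54 in VSEL 1 and -0.32 in VSEL 2+3. For Snurf and Snrpn, 1421063_s_at, dim in VSEL 1, was offset by -3.04 and -2.70, and the brighter 1415895_at by -1.47 and -1.15. 1435716_x_at of the same pair, above the line throughout, was offset by -2.35 and -2.01. Mest was offset by -1.45 and -2.10. Igf2 was offset by -1.04 and -1.01. 1424111_at of Igf2r was offset by -1.14 in VSEL 1 and 2.71 in VSEL 2+3, and among dim values 1438588_at of Plagl1 by 0.98 and 0.75 and 1442724_at of Dlk1 by 0.76 and 0.38. Nanog, a core pluripotency factor, read 9.03 and 8.74 in VSEL, between 3.46 and 3.60 in HSC and between 11.60 and 11.95 in ESC. The part of the cells that carry these markers in the values of the imprinted members was not tested. The summed level of 8 erythroid markers was also high in VSEL, at 14.85 to 16.22, while the HSC libraries lay between 12.06 and 12.92 and the ESC libraries between 11.13 and 11.18. Of the 8, 2 averaged dim in VSEL (Hba-a1 and Epb42), 3 in HSC and 5 in ESC. Of 10 mesenchymal markers 6 averaged dim in VSEL, 10 in HSC and 5 in ESC, with summed levels between 10.51 and 10.64, between 8.04 and 8.43 and between 12.69 and 12.81 in that order. Of 10 endothelial markers 7, 6 and 4 averaged dim, with summed levels of 9.46 to 10.96 in VSEL, 9.63 to 10.40 in HSC and, in the ESC libraries, 10.03 to 10.27.

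The 3′ bias of the libraries, read as the 3′ probe set minus the 5′ probe set averaged over the actin and Gapdh controls, also differed between groups. It was 0.709 to 1.07 on the VSEL arrays, 0.734 to 0.962 on the HSC arrays and 0.340 to 0.446 on the ESC arrays, so both marrow groups lay above ESC, and VSEL overlapped HSC. The controls differed, however. Gapdh alone gave 0.721 to 1.19 on the VSEL arrays, 0.500 to 0.750 on the HSC arrays and 0.177 to 0.275 on the ESC arrays, with VSEL mostly above HSC. Actin alone gave 0.697 to 0.949 on the VSEL arrays, below all HSC arrays (0.967 to 1.23) and overlapping the ESC arrays (0.406 to 0.715). Its part in the lower values of Ndn, Snrpn, Mest and Igf2 in HSC was not tested.

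A list of 59 other imprinted genes, of which 47 were measured by a 1-gene probe set, set the members in context. In HSC against ESC, 5 of the 47 were called lower and 3 higher, in VSEL against HSC 4 were higher and 3 lower, and in VSEL against ESC 2 were higher and 5 lower. The gene-level background shares given above apply to these counts. Over the 47, VSEL minus HSC had a median of 0.27, VSEL minus ESC of 0.11 and HSC minus ESC of -0.07, and over all genes these were 0.22, 0.11 and -0.04. H19, the noncoding neighbour of Igf2, had no 1-gene probe set in the annotation used, so it was not analysed here.

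Slc38a4, which encodes an amino acid transporter, is paternally expressed in mice and read 8.93 and 8.54 in VSEL, 3.91, 3.86 and 3.88 in HSC and averaged 11.46 ± 0.42 in ESC. VSEL and ESC were above the line, HSC was dim, and the groups did not overlap. It was 28.9-fold higher in VSEL than in HSC (limma adjusted p = 0.000225), 6.62-fold lower in VSEL than in ESC (adjusted p = 0.00267) and 191-fold lower in HSC than in ESC (adjusted p = 9.6e-06). Phlda2, which encodes a maternally expressed brake on placental growth, had the same order, at 7.71 and 7.20 in VSEL, between 5.34 and 6.03 in HSC and between 9.19 and 10.05 in ESC. Of the HSC libraries only HSC 1 was above the line. Phlda2 was 3.51-fold higher in VSEL than in HSC (adjusted p = 0.0237), 4.89-fold lower in VSEL than in ESC (adjusted p = 0.0121) and 17.2-fold lower in HSC than in ESC (adjusted p = 0.000424).

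Other imprinted genes moved in other ways. Nap1l4, a histone chaperone gene near Phlda2, read 8.09 and 8.39 in VSEL, between 10.78 and 11.45 in HSC and between 10.27 and 11.05 in ESC, and was 7.54-fold lower in VSEL than in HSC (adjusted p = 0.00253) and 5.46-fold lower in VSEL than in ESC (adjusted p = 0.00572). Trappc9, of the vesicle tethering complex, was likewise lower in VSEL than in both, by 3.51-fold against HSC (adjusted p = 0.0174) and 3.40-fold against ESC (adjusted p = 0.0185). Osbpl5, which encodes a lipid transfer protein, was 12.1-fold lower in VSEL than in HSC (adjusted p = 0.0467) and 10.1-fold higher in HSC than in ESC (adjusted p = 0.0493), and it averaged dim in VSEL and ESC. These genes show that an order with VSEL between HSC and ESC was not shared by all imprinted genes.

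In the remaining calls, Gnas, which encodes the stimulatory G protein alpha subunit, was 2.28-fold higher in VSEL than in ESC (adjusted p = 0.0109) and 2.29-fold higher in HSC than in ESC (adjusted p = 0.00447). H13, which encodes signal peptide peptidase, was 6.01-fold higher in HSC than in ESC (adjusted p = 0.0235), and Mcts2, which lies within H13 in the mouse, was 13.2-fold lower in HSC than in ESC (adjusted p = 0.00677). Cd81, which encodes a tetraspanin, was 3.69-fold lower in VSEL than in ESC (adjusted p = 0.0439) and 3.58-fold lower in HSC than in ESC (adjusted p = 0.0374), and Zdbf2 was 3.24-fold lower in HSC than in ESC (adjusted p = 0.00711). HSC was dim for Zdbf2. Usp29, a neighbour of Peg3, was called higher in VSEL than in HSC and ESC and was dim in all libraries, and Ins2, next to Igf2, was 1.53-fold higher in VSEL than in HSC (adjusted p = 0.0478). Near Ndn and Snrpn, where 3 uncalled genes are named after their values were seen, Magel2 and Peg12 were dim throughout, and Mkrn3 was above the line only in ESC 1, at 7.90 against 2.74 and 2.76 in the other ESC libraries.

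**Figure D5:**
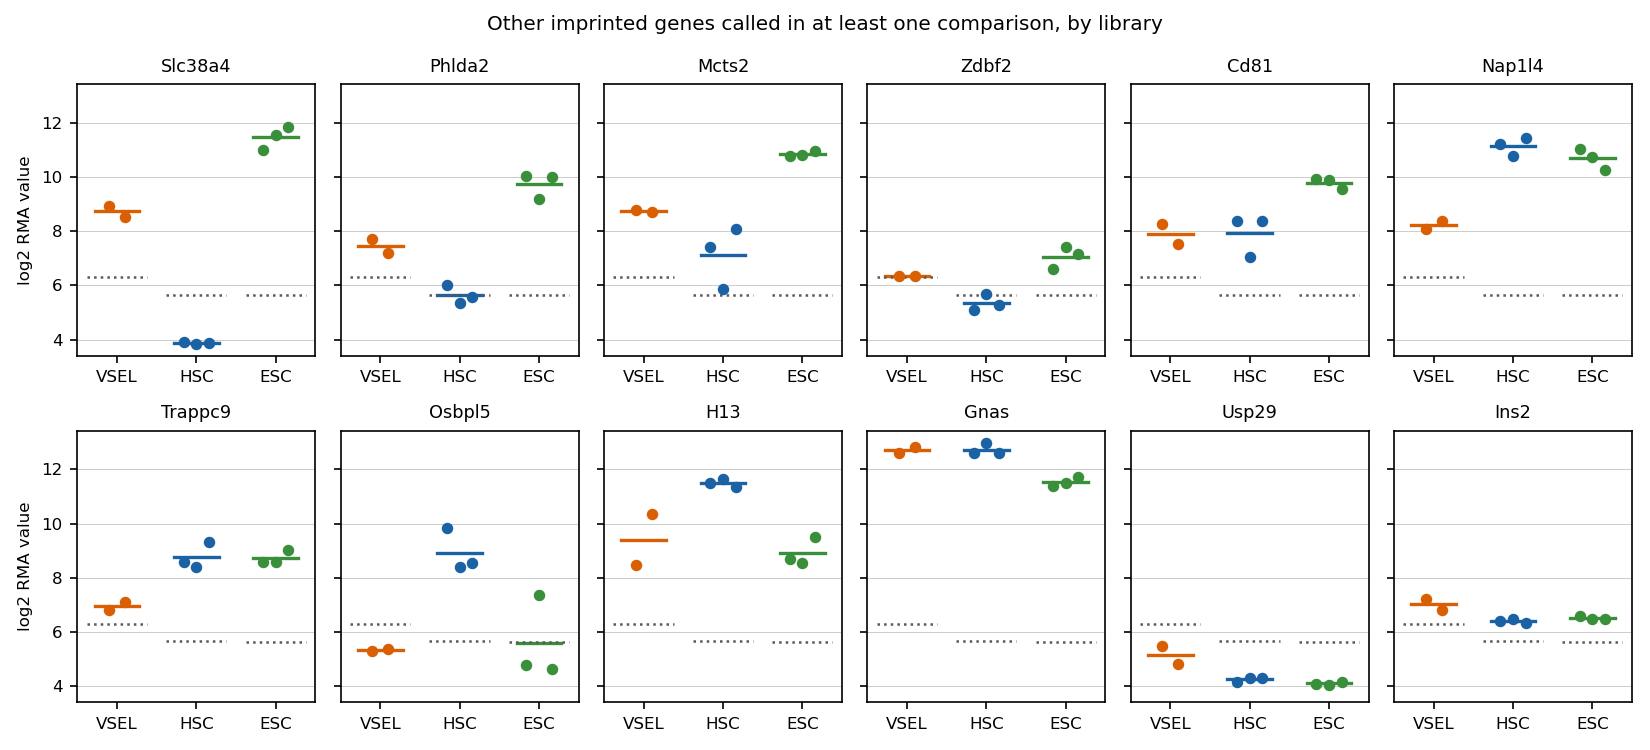
Log2 RMA values (vertical axis) of the 12 other imprinted genes called in at least 1 comparison, each from its 1-gene probe set with the highest mean, by library in VSEL, HSC and ESC. Points are libraries, bars are group means and dotted lines are the mean olfactory receptor line of the group. Slc38a4 averages 8.74 in VSEL, 3.88 in HSC and 11.46 in ESC, whereas Nap1l4 averages 8.24 in VSEL, 11.15 in HSC and 10.69 in ESC.

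Genes that set or keep imprints followed the order of the pluripotency markers in part. Of 17 listed genes 16 were measured, and 3 were called higher in VSEL than in HSC and 0 lower, 5 lower in VSEL than in ESC and 0 higher, and 7 lower in HSC than in ESC and 0 higher. At an unadjusted limma p under 0.05, 5 were higher and 1 lower in VSEL against HSC, 1 higher and 7 lower in VSEL against ESC, and 0 higher and 9 lower in HSC against ESC. Over all genes, 9.29% were called higher and 9.04% lower in VSEL against HSC, 7.59% and 10.3% in VSEL against ESC, and 6.38% and 8.89% in HSC against ESC, and with the unadjusted p these shares were 23.7% and 14.6%, 19.7% and 17.5%, and 11.8% and 16.5%. Dnmt3l, the cofactor of germ line methylation, read 8.49 and 8.44 in VSEL, 5.72, 5.53 and 5.72 in HSC and 10.27, 10.59 and 10.74 in ESC. HSC 2 was dim and the other HSC libraries were near the line. Dnmt3l was higher in VSEL than in HSC by a log2 difference of 2.81 (limma adjusted p = 0.000324), 4.19-fold lower in VSEL than in ESC (adjusted p = 0.00153) and 29.4-fold lower in HSC than in ESC (adjusted p = 9.37e-06). The de novo methyltransferase gene Dnmt3a was 2.77-fold higher in VSEL than in HSC (adjusted p = 0.0305) and lower in HSC than in ESC by a log2 difference of -3.59 (adjusted p = 0.000461). Its relative Dnmt3b was 6.35-fold lower in VSEL than in ESC (adjusted p = 0.00719). Trim28 and Setdb1 averaged lowest in VSEL, at 11.53 and 7.50, against 11.84 and 8.65 in HSC and 13.46 and 9.32 in ESC. Both were called lower in VSEL than in ESC (limma adjusted p = 0.00219 and 0.0242) but not lower than in HSC. Dnmt1 averaged highest in VSEL, at 11.20 in VSEL 1 and 12.95 in VSEL 2+3. Ctcf (11.69 and 7.05) and Zfp445 (11.01 and 5.64) split the VSEL libraries.

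Tet1, whose product oxidises methylated cytosine, was 9.73-fold lower in HSC than in ESC (adjusted p = 0.0117). Of the HSC libraries only HSC 2 was above the line for Tet1. Zfp57, which encodes a zinc finger protein that protects imprints in the early mouse embryo, read 6.14 and 5.85 in VSEL, between 5.17 and 5.29 in HSC and between 5.95 and 6.09 in ESC. Only ESC was above its line, and Zfp57 was 1.68-fold higher in VSEL than in HSC (adjusted p = 0.0175) and 1.71-fold lower in HSC than in ESC (adjusted p = 0.00784).

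Among the partners of Igf2, 14 of 15 listed IGF axis genes were measured, with 2 higher and 1 lower in VSEL than in HSC, 1 higher and 2 lower in VSEL than in ESC, and 1 higher and 3 lower in HSC than in ESC. The shares over all genes just given (9.29% and 9.04%, 7.59% and 10.3%, and 6.38% and 8.89%) apply here too, and no more is read from counts this small. Igfbp2, an IGF binding protein gene, read 10.11 and 9.69 in VSEL, 4.02, 4.25 and 5.03 in HSC and 12.44, 12.53 and 13.10 in ESC, which was 44.2-fold higher in VSEL than in HSC (adjusted p = 0.000477) and 6.91-fold lower in VSEL than in ESC (adjusted p = 0.00717). HSC was dim for Igfbp2. Igfbp4 was higher in VSEL than in ESC by 8.65-fold (12.54 and 13.02 against 8.71 to 10.43, adjusted p = 0.0164). Igfbp5 was 17.0-fold higher in VSEL than in HSC (adjusted p = 0.0278), but its VSEL libraries were at 9.15 and 6.07, and the second was dim. HSC was dim for Igfbp5 too.

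Igf2bp3, which encodes an RNA-binding protein that binds Igf2 mRNA, was 3.71-fold lower in VSEL than in ESC (adjusted p = 0.0171) and 6.82-fold lower in HSC than in ESC (adjusted p = 0.00174). Irs2, the insulin receptor substrate gene, was 3.27-fold lower in VSEL than in HSC (adjusted p = 0.0325) and averaged dim in VSEL. Igf1r read 6.41 and 6.49 in VSEL, between 5.33 and 6.99 in HSC and between 6.14 and 6.85 in ESC, and no comparison called it.

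The genes most alike in pattern to each member were read from the highest Pearson correlation over the 8 libraries, across all other genes, as a description of libraries that fall into 3 cell types. For Igf2 they were Amotl2 (r = 0.997) and Dpysl5 (r = 0.995), and for Mest they were Cttnbp2nl (r = 0.993) and B3galnt1 (r = 0.992). For Snrpn they were Rbp4 and Tmem97 (r = 0.984 each), and for 1437853_x_at of Ndn they were Pop1 (r = 0.983) and Psmb5 (r = 0.980). For Igf2r they were Ap2b1 (r = 0.981) and Litaf (r = 0.977), and for Cdkn1c they were Sh3bgrl2 (r = 0.969) and Nudt22 (r = 0.967). For Peg3 (Chst5 and AA414768), Grb10 (Myhas and Khdc3), Dlk1 (Gm14198 and Ccdc25) and Plagl1 (1700105P06Rik and Krt32) the r lay between 0.961 and 0.991, for member values that were dim in most libraries.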

How the data were processed

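Expression of 9 arrays was used as the deposited log2 values per probe set, for which the authors named Partek 6.5 and RMA, per the submitters' processing notes. RMA subtracts background, sets arrays to shared quantiles and sums up the probes of a set. Its settings, and which arrays went into 1 normalization, are not given in the sources used. Of 45101 probe sets, 64 array controls were left out. Of the rest, 34945 had 1 gene, 932 several and 9160 none in the platform annotation, and 34741 symbols were updated through gene identifiers (RefSeq, GRCm38.p6). Each gene of a list was read from its 1-gene probe set with the highest mean.

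VSEL arrays 2 and 3 were averaged to 1 library. The tests used lmFit and eBayes of limma 3.58.1 (R 4.3.3), two-sided, with 5 residual and 1.33 prior degrees of freedom, adjusted by Benjamini-Hochberg over all probe sets of a comparison. The fit assumes the same spread in all cell types, which HSC and ESC mostly set. The fit was also run on simulated data with 200 changed probe sets, in which all groups were given the spread of the ESC libraries. That run therefore does not test the assumption of equal spread. Precision is limited by how many arrays there are.

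The members and lists were chosen with earlier results of these data known. All member probe sets are named, and from each list the called genes with the largest differences in a comparison (at most 8 of the other imprinted genes and 3 of each other list), plus Igf1r and Zfp57. H19 was chosen too, but it had no 1-gene probe set. Magel2, Peg12, Mkrn3, Trim28, Setdb1, Dnmt1, Ctcf and Zfp445 were added after their values were seen. The marker lists were leukocyte, erythroid, pluripotency, mesenchymal, endothelial and HSC genes, and ribosomal protein genes served for scaling. Alternatives were the 9 arrays kept separate, a replicate block, other scalings, a filter on low values, raised background, fits on the compared groups alone, array weights, 1 probe set a gene and leaving out each array. The fit without VSEL 1 leaves 1 VSEL library, so its VSEL calls and counts rest on the spread of HSC and ESC alone.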

Additional observations from a re-analysis of the deposited data

How the results depend on the processing

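No member call changed its direction under any alternative. Of 35 member probe sets, 5 were called higher in VSEL than in HSC, and this became 10 with the 9 arrays kept separate, 16 after centring on ribosomal protein genes, 9 with values raised to the background, 1 in a fit on the compared groups alone, 3 with array weights and 0 (of 10 genes) with 1 probe set a gene, with a range of 2 to 7 when single arrays were left out. The lowest of these, 2, was reached without VSEL 1, and 3 were called without HSC 3. The 2 higher in VSEL than in ESC became 0 with cyclic loess, in a fit on the compared groups alone and with array weights, 4 with raised background and 1 with 1 probe set a gene, with a range of 0 to 3 when single arrays were left out, where 0 was reached without ESC 2 and 1 without VSEL 1, HSC 2, HSC 3, ESC 1 or ESC 3. The 8 lower in VSEL than in ESC became 1 and the 13 lower in HSC than in ESC became 5 with 1 probe set a gene (of 10 genes), and they ranged over 6 to 9 and 10 to 13 when single arrays were left out. Deviations from the group mean correlated at r between -0.0923 and 0.160 for arrays with the same replicate number. For arrays with different numbers r lay between -0.160 and 0.135. With so few arrays a group, these values cannot show whether the numbers pair the samples. With the replicate number as a block on the 9 arrays, 6 member probe sets were called higher in VSEL than in HSC, 2 higher and 9 lower in VSEL than in ESC and 12 lower in HSC than in ESC. Over all 45037 probe sets the block gave 3298, 2811, 3741 and 2797 in that order. Of all probe sets, 3603 were called higher in VSEL than in HSC without it. This became 5734 with the 9 arrays kept separate, 8320 after ribosomal centring and 5023 with raised background. It became 762 in a fit on the compared groups alone and 1052 with array weights. When single arrays were left out it ranged over 1432 to 4204. Over all probe sets, 6389 were called in VSEL against HSC, and this became 11028 after ribosomal centring, 3932 with cyclic loess, 2435 in a fit on the compared groups alone, 2702 with array weights, 3170 with 1 probe set a gene and 3524 to 7139 when single arrays were left out. In VSEL against ESC the 6334 became 3741, 3332 and 3088 with loess, weights and 1 probe set a gene, and 2734 to 7141 when single arrays were left out, and the 4788 of HSC against ESC became 3100 with 1 probe set a gene. Without HSC 1, 2 or 3 the VSEL against HSC calls were 3524, 4042 and 3669, without ESC 1, 2 or 3 they were 4052, 4174 and 4244, and the VSEL against ESC calls without ESC 1, 2 or 3 were 3031, 2734 and 3418. Of the VSEL against HSC calls 56.4% were higher in VSEL, a share that ranged over the 19 alternatives between 31.3% (fit on the compared groups alone) and 75.4% (ribosomal centring) and lay under 50% in 12. In VSEL against ESC it was 50.7%, between 28.4% (probe sets above the median mean) and 62.4% (ribosomal centring), with 60.8% after quantile normalization, and it lay under 50% in 11. The median VSEL minus HSC difference of all probe sets was 0.21 as deposited, 0.02 with loess and 0.44 after ribosomal centring, so VSEL values of dim members depend on the scaling. Those of bright members do too, as VSEL minus ESC of 1415895_at came to -0.63 with loess. The causes of these shifts were not tested. VSEL rests on 2 libraries, and probe sets under the olfactory receptor line carry no ordering that can be trusted.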
